A study of Mus musculus with 106 samples.

Results

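NMDA receptor subunits are the proteins that assemble into a glutamate-gated cation channel, and 6 of their genes were taken by name: Grin1, Grin2a, Grin2b, Grin2c, Grin2d and Grin3a, which encode GluN1, GluN2A, GluN2B, GluN2C, GluN2D and GluN3A. They are 6 of 21897 protein-coding genes and of 55401 mouse genes in the deposited count table. All 6 passed the filter on low counts in each of the 25 comparisons made. The remaining gene of the family, Grin3b, was not on that list and was read with the other genes of the receptor; its mean level in controls lay between 0.330 and 1.41 CPM (counts scaled to a common library total).

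The study asked how cell types of the brain respond to a Huntington's disease (HD) allele. Rpl22-HA, a ribosomal protein that gains an epitope tag in cells with Cre recombinase, allowed ribosome-bound mRNA of those cells to be immunoprecipitated (RiboTag IP) from frozen brain homogenate, and total RNA of the same tissue was sequenced as the input. From 45 mice there were 67 IP libraries (34 control, 33 HD) and 39 of total RNA. Total counts per library ran from 21905221 to 107753586, with a median of 35866725.

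HD mice were heterozygous knock-in animals (Hdh Q7/Q200) and controls were their Hdh Q7/Q7 littermates, both congenic on the 129S4 background, carrying 1 tagged Rpl22 allele and 1 Cre allele, at about 9 months of age. Cre was driven by Gad2-IRES-Cre for GABAergic neurons, by vGluT2-IRES-Cre for glutamatergic neurons, and by PV-IRES-Cre for parvalbumin neurons. For the SST mice, labelled for somatostatin, the sources read describe no cross, driver or age, so littermate controls are not stated for them. Cerebral IPs numbered 6 control and 6 HD for Gad2, 6 and 5 for PV, 5 and 4 for SST, and 6 and 6 for vGluT2. Cerebellar IPs numbered 6 control and 6 HD for Gad2, and 5 and 6 for vGluT2. Total RNA came from 13 control and 12 HD cerebra of the 4 lines, and from 7 control and 7 HD cerebella of the Gad2 and vGluT2 lines. Libraries of a group came from separate mice, by the mouse numbers in the labels, and the cerebral and cerebellar IPs of the Gad2 and vGluT2 lines came largely from the same animals. Reads had 100 bases, except for 3 libraries that failed at first and were run again with 150 bases. By their labels all 3 are from HD mice, a PV IP, a Gad2 IP of the cerebellum and a vGluT2 IP of the cerebrum, and the effect of that run was not tested. A driver tags every cell in which its promoter has been active, so an IP mixes all such neurons of a whole hemisphere.

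An NMDA receptor combines obligatory GluN1 subunits, which bind glycine or D-serine, with GluN2 subunits, which bind glutamate and set the channel's kinetics and magnesium block. GluN2A and GluN2B predominate in the adult forebrain, GluN2C is known from cerebellar granule cells and astrocytes, and GluN2D from interneurons and deep brain nuclei. GluN3A lowers calcium permeability, and excess signalling through extrasynaptic GluN2B receptors of striatal neurons has long been studied in HD.

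All 6 genes lie on the minus strand, and they differ widely in length. On GRCm38 (GENCODE M21 models) Grin1 (ENSMUSG00000026959.13) spans chr2:25291181-25319187, Grin2c (ENSMUSG00000020734.13) chr11:115249169-115267243 and Grin2d (ENSMUSG00000002771.12) chr7:45831883-45878378. The long genes are Grin3a (ENSMUSG00000039579.15) at chr4:49661611-49845744, Grin2a (ENSMUSG00000059003.12) at chr16:9567898-9995560 and Grin2b (ENSMUSG00000030209.14) at chr6:135713233-136173511. Coding sequence is 67.3% of the longest Grin1 transcript (2877 of 4276 bases), 75.9% for Grin2c (3717 of 4895) and 73.1% for Grin2d (3969 of 5431). For Grin3a it is 45.5% (3405 of 7491), for Grin2a 30.0% (4392 of 14634) and for Grin2b 18.5% (4446 of 24060). Most bases of the longest Grin2a and Grin2b transcripts are thus untranslated, and these transcripts are the longest of the set.

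The longest residue stretch that all 6 proteins share is 7 residues, in the third membrane helix near the channel gate. Its 21 coding bases are shown because they code for the longest stretch of residues common to all 6, and their bases still differ between the genes. Capitals mark bases unlike Grin1, all stretches are coding exon on the minus strand, and they are printed 5′ to 3′.
Grin1: tacactgccaacctggcagcc
Grin2a: tacacAgccaacctggcTgcc
Grin2b: tacactgccaacTtAgcCgcc
Grin2c: tacacGgccaaTctggcagcc
Grin2d: taTacAgccaaTctggcTgcc
Grin3a: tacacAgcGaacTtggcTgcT
They lie in exon 15 of Grin1 (chr2:25297202-25297222), exon 10 of Grin2a (chr16:9653450-9653470), exon 10 of Grin2b (chr6:135772247-135772267), exon 11 of Grin2c (chr11:115253752-115253772), exon 8 of Grin2d (chr7:45854282-45854302) and exon 3 of Grin3a (chr4:49770473-49770493). Grin2a and Grin2c each differ from Grin1 at 2 of these bases, Grin2b at 3, Grin2d at 4 and Grin3a at 5. Over all 36 annotated transcripts of the 6 genes, 2 of 15 gene pairs share any run of 31 bases, Grin2b with Grin2c and Grin2c with Grin2d, and the longest shared run is 34 bases against reads of at least 100 bases. Grin2d overlaps Kdelr1 on the opposite strand (median 2601 counts per library), which the stranded kit separates, and Ppp3r2 lies inside Grin3a on the same strand with a median of 3 counts.

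The IPs carried the markers of their labels, with RNA of other cells beside them. The GABAergic list (3 genes, most abundant Gad1) summed to 2737 CPM in control cerebral Gad2 IPs, 2565 in PV IPs, 1341 in SST IPs and 2995 in cerebellar Gad2 IPs, against 646 in cerebral and 791 in cerebellar total RNA, and to 81.8 and 183 in cerebral and cerebellar vGluT2 IPs. Pvalb averaged 615 CPM in PV IPs and 145 in SST IPs, and Sst 1326 in SST IPs and 97.8 in PV IPs. The striatal projection neuron list (5 genes, most abundant Ppp1r1b) summed to 4755 CPM in cerebral Gad2 IPs, the highest of the 8 sets, against 185 in PV IPs. In the cerebellum the Purkinje cell list (3 genes, most abundant Car8) summed to 8607 CPM in Gad2 IPs and the granule cell list (3 genes, most abundant Gabra6) to 3194 CPM in vGluT2 IPs.

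Markers of other cells were not at 0 in the IPs. Slc17a7, a marker of glutamatergic neurons, averaged 830 CPM in PV and 785 CPM in SST IPs against 1715 CPM in cerebral total RNA. The other gene of that list, Slc17a6, was higher in both, at 116 and 106.4 CPM against 51.4 CPM. The astrocyte and Bergmann glia list (6 genes) summed to 1880 CPM in SST IPs, close to the 1725 CPM of cerebral total RNA, to 1336 CPM in PV IPs and to 347 to 607 CPM in the other 4 control IP sets. The oligodendrocyte list (4 genes) summed to 2997 CPM in SST and 1753 CPM in PV IPs against 4665 CPM in cerebral total RNA. Oligodendrocyte precursor genes (2) were at 46.8 CPM in SST and 37.4 CPM in PV IPs against 51.0 CPM in cerebral total RNA, and microglial genes (4) at 6.32 to 70.7 CPM in the control IP sets. The Purkinje cell list summed to 80.5 to 594 CPM in control and 59.96 to 1436 CPM in HD PV IPs, and the granule cell list to 29.03 to 103.6 CPM and 24.6 to 217 CPM, so PV libraries varied widely in these lists. In control PV IPs the most abundant genes were Calb1 (129.5 of a mean sum of 215.9 CPM) and Etv1 (43.6 of 55.7 CPM). These genes also led the lists in cerebral Gad2 and vGluT2 IPs, so the sums alone are not specific to the cerebellum there. In those control sets Calb1 made up 289.1 of 333.3 and 218.1 of 221.9 CPM, a larger part than in PV IPs. By the edgeR calls defined below, 3 of 3 Purkinje cell genes were higher in control PV IPs than in cerebral total RNA. For granule cell genes it was 0 of 3. Against cerebral Gad2 IPs, 3 of 3 granule cell genes were higher, and 0 of 3 Purkinje cell genes higher and 1 lower. Whether PV IPs held cerebellar RNA was not tested. SST and PV IPs are therefore enriched rather than pure, and the part of other cells in their subunit levels was not tested.

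GluN1, the subunit that every NMDA receptor needs, was abundant in every set. In controls Grin1 ran from 585 to 860 CPM in cerebral vGluT2 IPs (median 689), from 466.3 to 880 in cerebral Gad2 IPs (median 702), from 489 to 854 in cerebellar Gad2 IPs (median 623) and from 486 to 655 in PV IPs (median 511). It read 587, 487, 530, 555 and 489 CPM in the 5 cerebellar vGluT2 IPs, and 474, 295, 553, 546 and 309 CPM in the 5 SST IPs. In total RNA it ran from 346 to 818 CPM in the cerebrum (median 619) and from 255 to 413 CPM in the cerebellum (median 307). By mean the order was cerebral vGluT2, cerebral Gad2 and cerebellar Gad2 IPs, cerebral total RNA, PV, cerebellar vGluT2 and SST IPs, and cerebellar total RNA. Each neighbour in that order overlapped the next, and the highest set mean was 2.11 times the lowest.

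GluN2A, the subunit of fast mature receptors, was highest in cerebral IPs and lowest in cerebellar Gad2 IPs. Control Grin2a ran from 123 to 208 CPM in cerebral vGluT2 IPs (median 179), from 108.4 to 199 in PV IPs (median 160) and from 69.5 to 130 in cerebral Gad2 IPs (median 107), and read 171, 152, 123, 175 and 228 CPM in SST IPs. In the cerebellum it read 75.7, 106.4, 98.0, 139 and 106.2 CPM in vGluT2 IPs and ran from 16.9 to 34.6 in Gad2 IPs (median 23.0). The cerebellar vGluT2 libraries thus lay wholly above the cerebellar Gad2 libraries. Total RNA gave 15.6 to 120.0 CPM in the cerebrum (median 36.3) and 25.2 to 78.3 CPM in the cerebellum (median 52.0), a spread of several fold within each group of controls. By mean the order was cerebral vGluT2, SST, PV, cerebellar vGluT2 and cerebral Gad2 IPs, cerebellar and cerebral total RNA, and cerebellar Gad2 IPs; each neighbour overlapped the next, and the ratio of the highest to the lowest mean was 7.15.

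GluN2B, which gives slow currents and anchors CaMKII, separated cerebrum from cerebellum. Control Grin2b ran from 267.5 to 387 CPM in cerebral vGluT2 IPs (median 302), from 208 to 340 in PV IPs (median 232) and from 120.4 to 256 in cerebral Gad2 IPs (median 197), and read 242, 199, 259, 319 and 328 CPM in SST IPs. Cerebellar Gad2 IPs held 19.5 to 40.8 CPM (median 26.2), and the 5 cerebellar vGluT2 IPs 3.01, 8.91, 4.01, 4.78 and 11.8 CPM. No cerebellar IP reached the lowest cerebral IP. Cerebral total RNA ran from 14.6 to 249.5 CPM (median 48.4) and cerebellar total RNA from 5.65 to 23.4 CPM (median 12.5). By mean the order was cerebral vGluT2, SST, PV and cerebral Gad2 IPs, cerebral total RNA, cerebellar Gad2 IPs, cerebellar total RNA and cerebellar vGluT2 IPs, with overlap between all neighbours and a ratio of 47.9 between the ends.

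GluN2C was highest in cerebellar vGluT2 IPs, the set with the lowest Grin2b. Control Grin2c read 319, 239, 327, 343 and 272 CPM in cerebellar vGluT2 IPs, ran from 109.9 to 237 CPM in cerebellar total RNA (median 181) and from 45.3 to 66.6 CPM in cerebellar Gad2 IPs (median 53.4). In the cerebrum it ran from 28.6 to 66.6 CPM in total RNA (median 53.7) and from 27.7 to 44.1 CPM in PV IPs (median 32.9), and read 35.9, 31.5, 42.7, 32.9 and 24.1 CPM in SST IPs. It was lowest in cerebral Gad2 IPs, with 7.33 to 15.4 CPM (median 10.7), and cerebral vGluT2 IPs, with 8.86 to 12.5 CPM (median 9.73). The first set in the order did not overlap the second, the second did not overlap the third, and SST did not overlap cerebral Gad2 IPs, while the other neighbours overlapped; the ends differed 29.9 times. The cerebral sets with more Grin2c (total RNA, PV and SST IPs) also had more astrocyte marker RNA than Gad2 and vGluT2 IPs, but among them the orders differed. The microglial list was higher in cerebral Gad2 IPs (70.7 CPM) than in SST (62.8 CPM) or PV IPs (45.5 CPM). The part of glia in the Grin2c level was not tested.

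GluN2D, a subunit with very slow deactivation and weak magnesium block, marked GABAergic sets. Control Grin2d ran from 60.2 to 92.1 CPM in cerebellar Gad2 IPs (median 70.1), from 31.6 to 53.8 CPM in cerebral Gad2 IPs (median 46.8) and from 35.7 to 54.4 CPM in PV IPs (median 42.5), and read 36.8, 26.9, 51.3, 51.3 and 24.1 CPM in SST IPs. Total RNA held 18.2 to 36.3 CPM in the cerebrum (median 28.4) and 16.0 to 25.04 CPM in the cerebellum (median 19.8). Cerebral vGluT2 IPs held 7.79 to 12.0 CPM (median 9.76), and the cerebellar vGluT2 IPs 7.03, 7.19, 5.89, 7.14 and 8.56 CPM. In the order cerebellar Gad2, cerebral Gad2, PV and SST IPs, cerebral and cerebellar total RNA, cerebral and cerebellar vGluT2 IPs, there was no overlap between the first pair or between cerebellar total RNA and cerebral vGluT2 IPs, and overlap elsewhere. The highest mean was 10.1 times the lowest.

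GluN3A, the glycine-binding subunit that lowers calcium flow, was highest in SST IPs. Control Grin3a read 124, 84.9, 145, 160.3 and 100.6 CPM there, ran from 68.3 to 93.3 CPM in cerebellar Gad2 IPs (median 83.8), from 38.2 to 69.1 CPM in cerebral Gad2 IPs (median 61.4) and from 37.8 to 50.9 CPM in PV IPs (median 44.1). Total RNA held 25.8 to 52.4 CPM in the cerebrum (median 41.4) and 29.2 to 44.5 CPM in the cerebellum (median 42.1). Cerebral vGluT2 IPs lay within 38.3 to 41.2 CPM (median 40.1), the narrowest spread of the sets, and cerebellar vGluT2 IPs read 5.69, 14.6, 4.83, 6.83 and 19.5 CPM. By mean the order was SST, cerebellar Gad2, cerebral Gad2 and PV IPs, cerebral total RNA, cerebral vGluT2 IPs, cerebellar total RNA and cerebellar vGluT2 IPs. Only the last pair of neighbours did not overlap, and the ends differed 11.9 times.

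**Figure D1:**
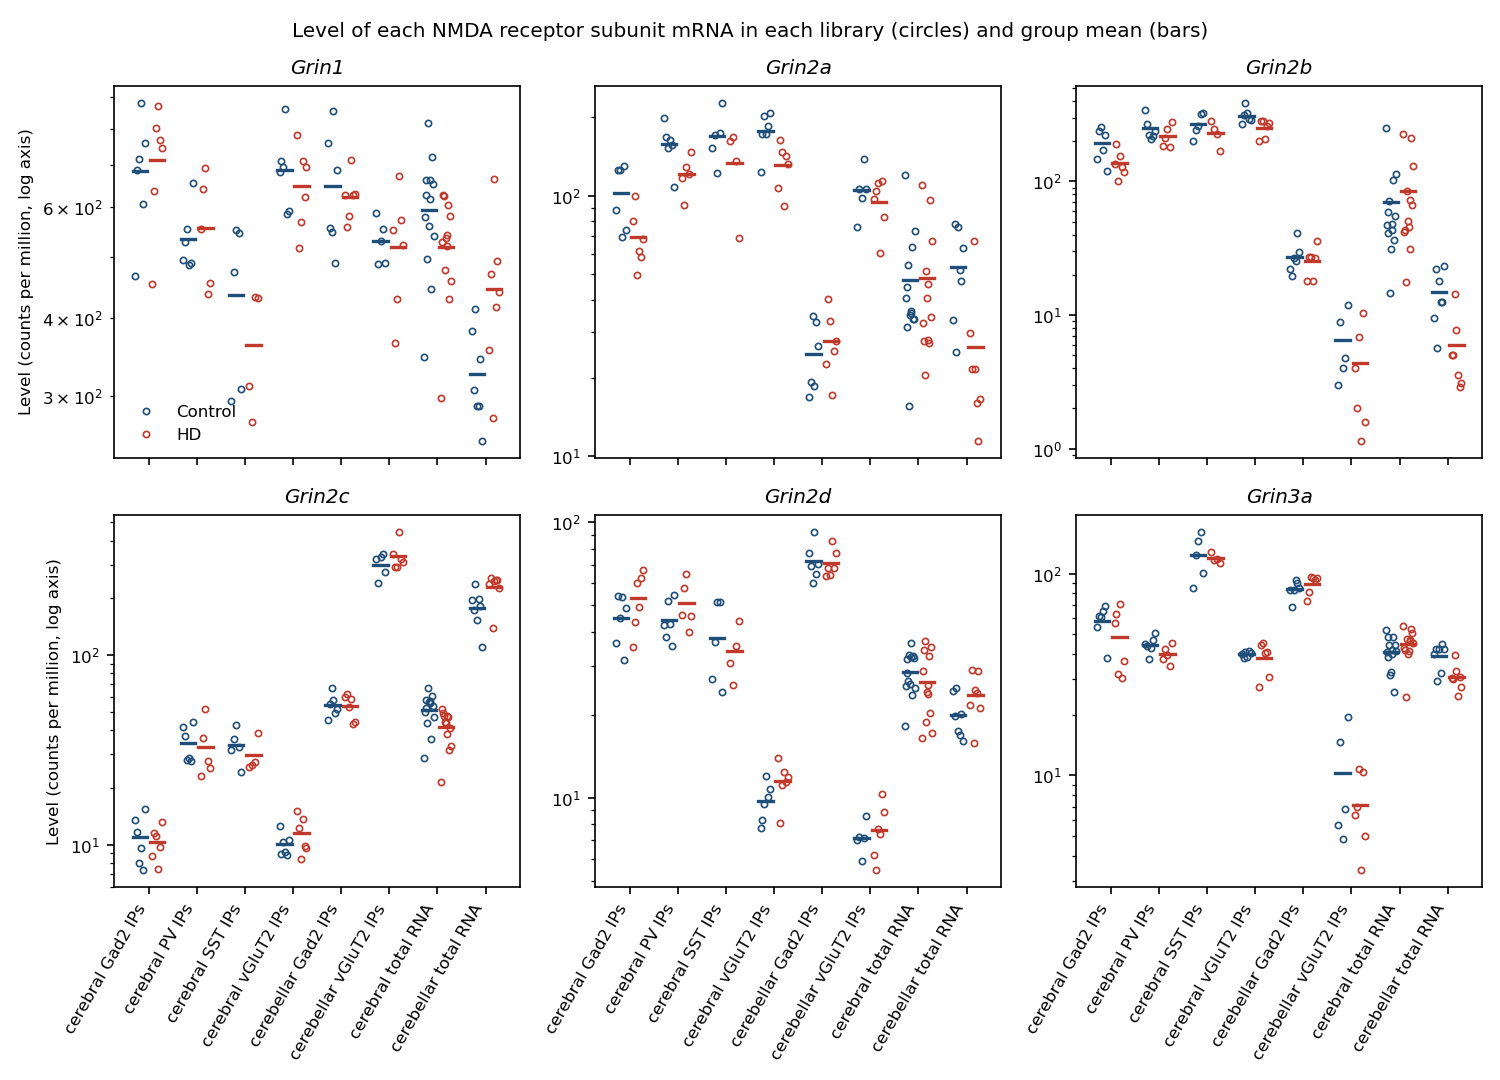
Level of each subunit gene in CPM (log axis) in the 8 sets, with controls in blue and HD in red, 1 circle per library and a bar at the group mean. Grin2b is lower in cerebellar than in cerebral IPs and Grin2c has a control mean of 300.0 CPM in cerebellar vGluT2 IPs, while total RNA libraries spread widely for Grin2a and Grin2b.

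Divided by exon length, the levels give the make-up of the GluN2 pool, described here with no test. Per kb of exon, Grin2b took 48.4% ± 3.21 (SD, n = 6) and Grin2a 38.0% ± 3.74 of the 4 GluN2 genes in control cerebral vGluT2 IPs, with 7.85% for Grin2c and 5.66% for Grin2d. In cerebral Gad2 IPs, Grin2d took 30.5% ± 6.77 (n = 6) beside 34.2% for Grin2b, 25.3% for Grin2a and 10.1% for Grin2c. PV IPs (n = 6) gave 27.3% Grin2a, 30.9% Grin2b, 21.1% Grin2c and 20.7% Grin2d, and SST IPs (n = 5) 29.1%, 33.0%, 20.5% and 17.4% in the same order. On this scale every cerebral IP set led with Grin2b by mean, and GABAergic sets held more Grin2d than the vGluT2 set.

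The cerebellar pools were unlike the cerebral ones. Cerebellar Gad2 IPs were split between Grin2d, at 45.1% ± 5.77 (SD, n = 6), and Grin2c, at 44.6% ± 4.42, with 5.75% Grin2a and 4.59% Grin2b. The granule cell list summed to 288 CPM in these libraries (169 to 438 CPM), and its part in the Grin2c share was not tested. In cerebellar vGluT2 IPs Grin2c took 89.1% ± 2.34 (n = 5), Grin2a 8.85%, Grin2d 1.64% and Grin2b 0.415%. Total RNA was led by Grin2c in both regions, at 51.7% ± 11.5 (n = 13) in the cerebrum and 83.6% ± 4.80 (n = 7) in the cerebellum. By mean, the leading subunit of cerebral total RNA was therefore not the leading subunit of any cerebral neuronal IP. Single libraries of cerebral total RNA spread widely, from 22.6% to 67.3% for Grin2c and from 2.99% to 39.96% for Grin2b.

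On the same per-kb scale, control Grin1 had a mean of 70.9 CPM per kb of exon in cerebral vGluT2 IPs and 33.6 in cerebellar total RNA, the highest and lowest of its 8 sets. Grin2c reached 59.6 CPM per kb in cerebellar vGluT2 IPs beside 54.6 for Grin1 there, and the other GluN2 genes stayed at 12.5 CPM per kb or lower in every control set. Grin3a was highest in SST IPs, at 10.02 CPM per kb. Exon length is the union of all annotated exons, 9700 bases for Grin1 against a longest transcript of 4276 bases, so levels between genes depend on the length used. Per base of the longest transcript, Grin1 lay above Grin2c in cerebellar vGluT2 IPs (529 CPM over 4276 bases against 300.0 CPM over 4895 bases). With the longest transcript instead, the Grin2b share of cerebral vGluT2 IPs was 44.8% and that of Grin2a 41.7%. The leading subunit of the other cerebral IPs then changed: Grin2d with 32.8% against 30.99% for Grin2b in Gad2 IPs, Grin2a with 29.8% against 28.3% in PV IPs, and Grin2a with 31.8% against 30.4% in SST IPs.

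**Figure D2:**
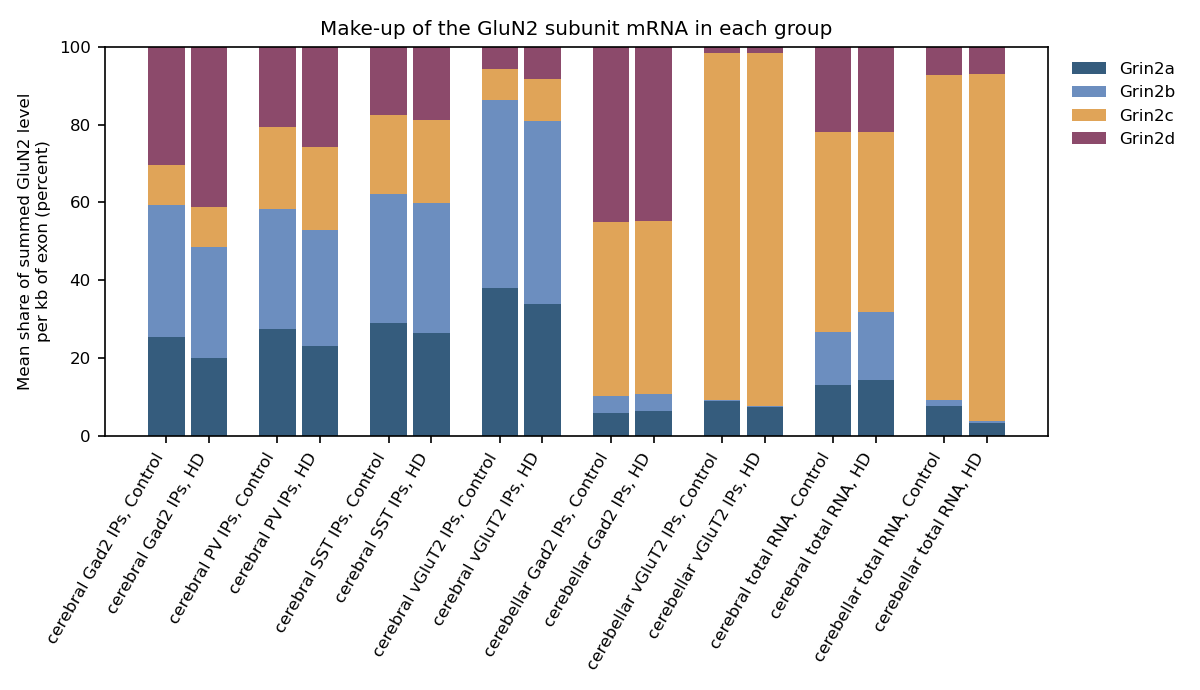
Mean share of Grin2a, Grin2b, Grin2c and Grin2d in the sum of the 4 per kb of exon, in percent from 0 to 100, for control and HD libraries of the 8 sets. Grin2c fills 89.1% of the control bar in cerebellar vGluT2 IPs and 7.85% in cerebral vGluT2 IPs.

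Levels of the long genes may follow a property of the whole library. A long-transcript index, chosen after seeing the data, was computed for each library as the median log2 deviation of 818 genes with a longest transcript over 8000 bases minus that of 2926 genes with 2000 bases or less, leaving out the 6 subunits. Because of that choice, its relation to the subunits is given as a description with no test. Over the 25 cerebral total RNA libraries, each from its own mouse, Grin2a had a Pearson r of 0.958 with the index (Spearman rho 0.928). Grin2b had r = 0.957 (rho 0.919) and Grin3a r = 0.791 (rho 0.748). The short genes went the other way, with r = -0.86 for Grin1 (rho -0.80), r = -0.82 for Grin2c (rho -0.73) and r = -0.77 for Grin2d (rho -0.72). Without the 2 libraries farthest from the median index, r was 0.939 for Grin2a, 0.936 for Grin2b, 0.761 for Grin3a, -0.79 for Grin1, -0.72 for Grin2c and -0.67 for Grin2d. Within the 13 controls and the 12 HD libraries taken apart, Grin2a gave r = 0.962 and 0.963 and Grin2c r = -0.88 and -0.84.

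Among controls the index averaged 0.685 in PV and 0.877 in SST IPs, -0.24 in cerebral Gad2 and -0.02 in cerebral vGluT2 IPs, 0.144 and 0.323 in the Gad2 and vGluT2 IPs of the cerebellum, and -0.57 in cerebral and 0.471 in cerebellar total RNA. What sets the index of a library was not tested, and the GluN2 shares were not adjusted for the index. Each comparison was therefore also fitted with the index as a covariate, and those values are given beside the others where they end or make a call, and for some of the differences that were not called.

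Subunit use by cell type was tested among the control IPs in 1 fit of 34 libraries, so these 6 comparisons share samples. Genes were tested by the quasi-likelihood test of edgeR, adjusted by Benjamini-Hochberg over every protein-coding gene whose mean count passed 10. A gene was called at an adjusted p of 0.05 or less, and ± after a log2 difference is its standard error. Where groups are said not to overlap, the share of all genes without overlap was not counted.

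Between the regions, Gad2 IPs of the cerebellum held less Grin2a and Grin2b and more Grin2c than those of the cerebrum. In cerebellar against cerebral Gad2 IPs, 4 of 6 subunits were called, 2 higher and 2 lower, against 55.0% of all genes (8020 of 14571), a share like the background. Grin2b was lower by a log2 difference of -2.88 ± 0.25 (edgeR adjusted p = 4.08e-12) and Grin2a by -2.11 ± 0.20 (edgeR adjusted p = 4.04e-11). Grin2c was higher by 2.25 ± 0.17 (edgeR adjusted p = 7.75e-14) and Grin2d by 0.63 ± 0.16 (edgeR adjusted p = 0.00125). For each of the 4, the 6 cerebellar libraries did not overlap the 6 cerebral ones. In the same comparison 3 of 3 granule cell genes were called higher, with list sums of 288 CPM in the cerebellum and 31.03 CPM in the cerebrum, as were 4 of 6 astrocyte genes, with 1 lower (607 and 477 CPM). Their part in the Grin2c difference was not tested. Grin3a, 0.46 ± 0.21 higher, was not called (edgeR adjusted p = 0.0708), but was by DESeq2 (0.50, adjusted p = 0.0447), without cerebral Gad2 replicate 5 (0.54) and with the mouse as a block (0.53 ± 0.13, adjusted p = 0.00664).

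Glutamatergic neurons of the cerebellum likewise held less Grin2b and more Grin2c than those of the cerebrum, and the difference between the Gad2 and vGluT2 pairs was not tested. In cerebellar against cerebral vGluT2 IPs all 6 subunits were called, 1 higher and 5 lower, beside 63.7% of all genes. Grin2c was 30.1-fold higher (log2 4.91 ± 0.19, edgeR adjusted p = 2.50e-21). Grin2b was lower by a log2 difference of -5.55 ± 0.31 (edgeR adjusted p = 3.58e-17) and Grin3a by -1.92 ± 0.24 (edgeR adjusted p = 1.55e-08), and for these 3 genes the 5 cerebellar libraries did not overlap the 6 cerebral ones. Grin2a was lower by -0.74 ± 0.20 (edgeR adjusted p = 0.00187), with overlap.

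Grin1, at -0.36 ± 0.16 (edgeR adjusted p = 0.0487), and Grin2d, at -0.42 ± 0.18 (edgeR adjusted p = 0.0388), rested on single libraries and on the index in that comparison. Grin1 was called only without cerebellar replicate 1 or cerebral replicate 5 or 6, and lost its call without any other of the 11 libraries (-0.41 to -0.29). Grin2d lost its call without cerebellar replicates 1 to 4 or cerebral replicates 4 to 6 (-0.50 to -0.35 over all 11). With the index as a covariate the differences were -0.31 ± 0.17 (edgeR adjusted p = 0.0961) and -0.39 ± 0.18 (edgeR adjusted p = 0.0664).

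Within the cerebrum, glutamatergic and GABAergic neurons differed most in GluN2D. In cerebral vGluT2 against Gad2 IPs, 4 of 6 subunits were called, 2 higher and 2 lower, against 30.1% of all genes. Grin2d was lower by a log2 difference of -2.25 ± 0.17 (edgeR adjusted p = 9.31e-13), with the 6 vGluT2 libraries all below the 6 Gad2 libraries. Grin2a was higher by 0.75 ± 0.19 (edgeR adjusted p = 0.00256), with overlap, and Grin2b by 0.65 ± 0.23 (edgeR adjusted p = 0.0299), with none. Grin3a was lower by -0.59 ± 0.22 (edgeR adjusted p = 0.0344), with overlap. The count fell to 2, a share near that of all genes, without Gad2 replicate 4 or vGluT2 replicate 3; Grin2b lost its call without those or Gad2 replicate 1 or 6 (0.55 at the lowest), and Grin3a in 9 of 12 fits that left out a library, all but those without Gad2 replicate 1 or 6 or vGluT2 replicate 1 (-0.69 to -0.53). Grin3a also lost its call with DESeq2 size factors (-0.55, edgeR adjusted p = 0.0560) and with no filter on low counts (-0.55, edgeR adjusted p = 0.0586).

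Within the cerebellum the contrast reached 5 subunits. In cerebellar vGluT2 against Gad2 IPs, 2 were called higher and 3 lower, beside 58.7% of all genes. Grin2c was higher by 2.50 ± 0.17 (edgeR adjusted p = 1.17e-14) and Grin2a by 2.12 ± 0.20 (edgeR adjusted p = 8.44e-11). Grin2d was lower by -3.29 ± 0.19 (edgeR adjusted p = 2.35e-16), Grin3a by -2.97 ± 0.25 (edgeR adjusted p = 2.97e-12) and Grin2b by -2.02 ± 0.26 (edgeR adjusted p = 4.79e-08). None of these 5 overlapped between the 5 vGluT2 and 6 Gad2 libraries, and the share of all genes without overlap was not counted. Grin1, at -0.26 ± 0.16, was not called except without Gad2 replicate 5 (-0.38).

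Grin3a set SST IPs apart from PV IPs. In PV against SST IPs 1 subunit of 6 was called, lower, beside 14.7% of all genes, a share close to the background. Grin3a was lower by -1.48 ± 0.23 (edgeR adjusted p = 1.25e-05), and the 6 PV libraries (at most 50.9 CPM) all lay below the 5 SST libraries (at least 84.9 CPM). The other 5 subunits differed by -0.12 to 0.29 on the log2 scale, none called.

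PV against cerebral Gad2 IPs gave 2 called subunits of 6, both higher, beside 53.4% of all genes. Grin2c was higher by 1.68 ± 0.16 (edgeR adjusted p = 4.65e-10), with no overlap between 6 and 6 libraries. Grin2a was higher by 0.66 ± 0.19 (edgeR adjusted p = 0.00417), but with the index as a covariate it turned to -0.11 ± 0.15 (edgeR adjusted p = 0.590), and so did Grin2b, from 0.40 ± 0.23 to -0.36 ± 0.23, neither called. Grin1, at -0.34 ± 0.15, was called only without Gad2 replicate 1 or PV replicate 6 (-0.42 at the lowest), where the count was 3. The astrocyte list was at 1336 CPM in PV and 477 CPM in Gad2 IPs, and its part in the Grin2c difference was not tested. The glutamatergic list was at 947 and 239 CPM with 2 of 2 genes called higher, as were 4 of 4 oligodendrocyte, 2 of 2 precursor and 3 of 3 granule cell genes. Called lower were 5 of 5 striatal, 2 of 3 GABAergic, 2 of 4 microglial and 1 of 3 Purkinje cell genes, and Sst. The part of these cells in the Grin2a difference was not tested.

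IPs were then compared with all control total RNA of their region, which asks which subunits the tagged neurons hold above tissue. In cerebral Gad2 IPs all 6 subunits were called, 5 higher and 1 lower, against 65.5% of all genes. Grin2b was higher by 1.47 ± 0.33 (edgeR adjusted p = 1.99e-04), Grin2a by 1.14 ± 0.25 (edgeR adjusted p = 1.84e-04), Grin2d by 0.74 ± 0.13 (edgeR adjusted p = 1.08e-05), Grin3a by 0.58 ± 0.13 (edgeR adjusted p = 2.56e-04) and Grin1 by 0.30 ± 0.13 (edgeR adjusted p = 0.0411). Grin2c was lower by -2.13 ± 0.16 (edgeR adjusted p = 2.41e-13). Its 6 IP libraries did not overlap the 13 total RNA libraries, whereas Grin2a and Grin2b did.

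These calls changed with the fit. The Gad2 line has 3 control total RNA libraries of the 13, and the effect of fewer libraries was not separated from that of the line. With total RNA of the Gad2 line alone, or with the mouse as a block, 2 of the 6 calls were left, those of Grin2c and Grin2d. Of all genes, 4790 and 2494 were then called, against 9679 with all 13 total RNA libraries. Lost were Grin2a (0.67 ± 0.43 and 0.52 ± 0.35), Grin2b (0.76 ± 0.55 and 0.91 ± 0.52), Grin3a (0.42 ± 0.21, edgeR adjusted p = 0.152, and 0.23 ± 0.22, edgeR adjusted p = 0.487) and Grin1 (0.41 ± 0.21 and 0.40 ± 0.17). Grin1 was called by edgeR but not by DESeq2 (0.18, adjusted p = 0.233), and lost its call without any of Gad2 replicates 2 to 6 (0.22 to 0.38 over all 6).

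In PV IPs 5 subunits were called, 4 higher and 1 lower, against 68.4% of all genes. Grin2b was higher by 1.96 ± 0.33, Grin2a by 1.89 ± 0.25 and Grin2d by 0.83 ± 0.13. With the index as a covariate these were 0.61 ± 0.18, 0.71 ± 0.14 and 1.08 ± 0.18, still called, so the first 2 were smaller by over 1.5 times. Grin3a (0.30 ± 0.13, edgeR adjusted p = 0.0432) and Grin2c (-0.37 ± 0.15, edgeR adjusted p = 0.0275) turned to -0.11 and 0.11 with the index, while Grin1, 0.05 ± 0.13 (-0.08 with DESeq2 scaling), became 0.42 ± 0.16 (edgeR adjusted p = 0.0260). Grin3a also lost its call without PV replicates 1, 2, 4, 5 or 6 (0.27 to 0.34 over all 6) and Grin2c without replicates 3, 4 or 5 (-0.44 to -0.31), so that 3 subunits were called without replicate 4 or 5. The Grin3a call was also lost with DESeq2 (0.18, adjusted p = 0.245), with DESeq2 size factors (0.18, edgeR adjusted p = 0.236), with no filter on low counts (0.16, edgeR adjusted p = 0.308), against total RNA of the PV line alone (0.20, edgeR adjusted p = 0.295) and with the mouse as a block (0.33, edgeR adjusted p = 0.217).

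SST IPs gave 5 called subunits, 4 higher and 1 lower, against 63.5% of all genes. Grin3a was higher by 1.77 ± 0.13 (edgeR adjusted p = 1.48e-12), and its 5 libraries did not overlap the 13 of total RNA. Grin2b was higher by 2.07 ± 0.34, Grin2a by 1.98 ± 0.26 and Grin2d by 0.61 ± 0.14, while Grin2c was lower by -0.42 ± 0.16. With the index as a covariate 3 subunit calls were left, and 4849 of all genes were called against 9388 without it. Still called were Grin3a (1.28 ± 0.17), Grin2a (0.60 ± 0.15) and Grin2d (0.90 ± 0.20), while Grin2b was 0.46 ± 0.20 (edgeR adjusted p = 0.0732) and Grin2c turned to 0.11. Grin2d lost its call against total RNA of the SST line alone (0.48 ± 0.23) and with the mouse as a block (0.15 ± 0.21). Grin1, -0.25 ± 0.14, was called only without SST replicate 3 or 4 (-0.35 at the lowest), by DESeq2 or with its size factors (-0.36 in both) or with no filter on low counts (-0.39), and turned to 0.18 with the index.

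Cerebral vGluT2 IPs gave 4 called subunits, 2 higher and 2 lower, against 65.2% of all genes. Grin2b was higher by 2.10 ± 0.33 and Grin2a by 1.87 ± 0.25, and Grin2c was lower by -2.32 ± 0.17 and Grin2d by -1.53 ± 0.15, each with an edgeR adjusted p of 8.69e-07 or less. The 6 IP libraries did not overlap the 13 of total RNA for Grin2b, Grin2a, Grin2c or Grin2d. Grin1, 0.24 ± 0.13, was called only with the index as a covariate (0.41 ± 0.12, edgeR adjusted p = 0.00351).

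In the cerebellum, Gad2 IPs held GluN2D, GluN3A and GluN1 above tissue and GluN2C below it. Of 6 subunits 5 were called, 3 higher and 2 lower, against 57.9% of all genes: Grin2d 1.75 ± 0.12, Grin3a 0.98 ± 0.25, Grin1 0.89 ± 0.12, Grin2c -1.81 ± 0.14 and Grin2a -1.24 ± 0.26, each with an edgeR adjusted p of 0.00224 or less. Grin2a lost its call against total RNA of the Gad2 line alone (-0.91 ± 0.35) and with the mouse as a block (-0.36 ± 0.33). Grin2b, 0.75 ± 0.33, was not called (edgeR adjusted p = 0.0592), but was by DESeq2 (0.82, adjusted p = 0.0188), without Gad2 replicate 1 or 2 (0.92 at the highest), with the mouse as a block (1.59 ± 0.32) and with the index (1.30 ± 0.25). It was also called against total RNA of the Gad2 line alone (1.11 ± 0.38), with DESeq2 size factors (0.82) and with no filter on low counts (0.81).

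Cerebellar vGluT2 IPs gave 6 called subunits, 3 higher and 3 lower, against 55.6% of all genes. Grin2a was higher by 0.81 ± 0.27, Grin2c by 0.62 ± 0.14 and Grin1 by 0.57 ± 0.12. Grin3a was lower by -2.04 ± 0.29, Grin2d by -1.61 ± 0.13 and Grin2b by -1.33 ± 0.37. The largest edgeR adjusted p of the 6 was 0.0139, for Grin2a, and all 6 stayed called whichever IP library was left out. For Grin2c the 5 IP libraries (at least 239 CPM) lay above the 7 of total RNA (at most 237 CPM).

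Between total RNA of the regions, cerebellum against cerebrum, 4 subunits were called, 1 higher and 3 lower, beside 70.6% of all genes. Mice BO24, BQ33, BQ35 and BQ36 gave total RNA of both regions, and this fit did not pair them. Grin2c was higher by 1.86 ± 0.12 (edgeR adjusted p = 5.42e-12), with no overlap between 7 and 13 libraries. Grin2b was lower by -2.23 ± 0.50, Grin1 by -0.80 ± 0.11 and Grin2d by -0.45 ± 0.10. With the index as a covariate Grin2b was -3.68 ± 0.16, Grin1 -0.45 ± 0.08 and Grin2d -0.21 ± 0.09 (edgeR adjusted p = 0.0566). Grin2a, 0.21 ± 0.33 without it, became -0.998 ± 0.12 (edgeR adjusted p = 2.74e-07) and Grin3a, -0.02 ± 0.14, became -0.48 ± 0.11 (edgeR adjusted p = 6.00e-04).

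No subunit was called between HD and control in any IP set. In cerebral Gad2 IPs, which hold the striatal projection neurons most affected in HD, 0 of 6 subunits were called by edgeR, against 0.0279% of all genes (4 of 14342), and 0 by DESeq2. At an unadjusted p under 0.05 there were 2, Grin2a and Grin2b, beside 1313 of 14342 genes. Grin2a ran from 69.5 to 130 CPM in controls (median 107) and from 49.9 to 100.2 CPM in HD (median 64.9). Grin2b ran from 120.4 to 256 CPM in controls and from 101 to 190 CPM in HD (medians 197 and 132). HD libraries tended to the low side for both, and the groups overlapped. The log2 difference was -0.58 ± 0.21 for Grin2a and -0.51 ± 0.21 for Grin2b (edgeR adjusted p = 0.536 for both).

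With the index as a covariate those differences in cerebral Gad2 IPs were -0.27 ± 0.10 and -0.22 ± 0.12, both closer to 0 by over 1.5 times, and Grin3a moved from -0.29 ± 0.23 to -0.10 ± 0.21. The index averaged -0.24 in control and -0.49 in HD libraries, and long genes had a median log2 difference of -0.21 and short genes of 0.06. The striatal list summed to 4755 CPM in control and 3012 CPM in HD libraries, the astrocyte list to 477 and 283 CPM, the oligodendrocyte list to 762 and 536 CPM and the microglial list to 70.7 and 114 CPM. By edgeR 0 genes of these lists were called. DESeq2 called 75 genes in this set against 4 by edgeR, and its calls for the lists are not given here. The paper, which used DESeq2, reports Penk, a gene of the striatal list, as downregulated in these neurons. The part of these cells in the Grin2a and Grin2b values was not tested. Fewer cells of a type and less RNA per cell cannot be told apart in such samples. The GluN2 share of Grin2d was 30.5% in control and 41.0% in HD libraries, with overlap (21.2% to 38.7% and 29.7% to 49.96%), while the share of Grin2c was 10.1% and 10.5%.

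PV IPs gave 0 called subunits by edgeR and 0 by DESeq2, against 0.0340% of all genes. At an unadjusted p under 0.05 there was 1, beside 630 of 14713 genes. Grin2a read 117, 129, 148, 122 and 92.3 CPM in the 5 HD libraries against 108.4 to 199 CPM in the 6 controls (median 160). All 5 HD values were below the control median, and the groups overlapped. The difference was -0.40 ± 0.16 (edgeR adjusted p = 0.9999), and -0.36 ± 0.10 with the index as a covariate (edgeR adjusted p = 0.394). The astrocyte list summed to 1336 CPM in control and 846 CPM in HD PV IPs, the oligodendrocyte list to 1753 and 1132 CPM and the striatal list to 185 and 132 CPM. By edgeR 0 genes of these lists were called. DESeq2 called 42 genes in this set against 5 by edgeR, and its calls for the lists are not given here. The paper, which used DESeq2, ties its PV genes to myelination. The part of these cells in the Grin2a value was not tested.

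SST IPs gave 0 called subunits by edgeR, against 0% of all genes (0 of 14689, with 207 at an unadjusted p under 0.05 and 2 by DESeq2), 0 at an unadjusted p under 0.05 and 0 by DESeq2. The log2 differences ran from -0.33 ± 0.27 for Grin2a to -0.04 ± 0.19 for Grin3a. Adding the index as a covariate moved Grin2a to -0.20 ± 0.13, Grin2b from -0.21 to -0.09 ± 0.13, Grin2c from -0.17 to -0.27 ± 0.13 and Grin2d from -0.16 to -0.24 ± 0.24, none called. Grin3a, the subunit that marks this set, read 128, 116, 119 and 113 CPM in HD, all inside the control range of 84.9 to 160.3 CPM. The astrocyte list summed to 1880 CPM in control and 1376 CPM in HD SST IPs, the oligodendrocyte list to 2997 and 2419 CPM and the striatal list to 375 and 290 CPM. The microglial list went the other way (62.8 and 67.3 CPM). No gene of these lists was called by edgeR, and the part of these cells in the subunit values was not tested. By the mouse numbers, 3 of the 5 controls belong to a series with another prefix than the other 2 and the 4 HD mice, so genotype and series are partly tied here, and the effect of the series was not tested.

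In cerebral vGluT2 IPs 0 subunits were called by edgeR and 0 by DESeq2, against 0.00697% of all genes (1 of 14354). At an unadjusted p under 0.05 there were 2, beside 1045 of 14354 genes. Grin2a ran from 123 to 208 CPM in controls (median 179) and from 91.1 to 164 CPM in HD (median 138). Grin2b ran from 267.5 to 387 CPM in controls and from 200.4 to 284 CPM in HD (medians 302 and 266). HD libraries were on the low side of both ranges, which overlapped. Grin2a differed by -0.43 ± 0.16 and Grin2b by -0.30 ± 0.12 (edgeR adjusted p = 0.677 for both), and by -0.21 ± 0.11 and -0.15 ± 0.08 with the index, while Grin2c moved from 0.19 to 0.03 ± 0.15; the index mean was -0.02 in controls and -0.31 in HD. The astrocyte list summed to 597 CPM in control and 426 CPM in HD libraries, the oligodendrocyte list to 471 and 328 CPM, and the striatal list to 324 and 227 CPM, the last with no overlap (283 to 438 CPM and 206 to 259 CPM). No gene of these lists was called by edgeR. DESeq2 called 25 genes in this set against 1 by edgeR, and its calls for the lists are not given here. The paper reports HD-associated genes such as Penk as downregulated in cerebral vGluT2 or PV neurons too. The part of these cells in the Grin2a and Grin2b values was not tested. In these 4 cerebral IP sets the median log2 difference of the subunits was -0.20 (Gad2), -0.13 (PV), -0.19 (SST) and -0.07 (vGluT2), against -0.01, 0.00, 0.01 and -0.02 over all genes tested. When 1 library was left out, the number of genes called was 3 to 12 for Gad2 (12 without HD replicate 4), 0 to 4 for PV, 0 or 1 for SST (1 without HD replicate 3) and 0 or 1 for vGluT2, with 0 subunits called each time.

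The cerebellar IPs also gave 0 called subunits by edgeR and DESeq2, against 0.0142% of all genes in Gad2 and 2.11% (285 of 13487) in vGluT2 IPs. At an unadjusted p under 0.05 there were 0 subunits, beside 324 of 14098 genes in Gad2 and 2090 of 13487 in vGluT2 IPs. In cerebellar Gad2 IPs the subunits differed by -0.12 to 0.14 on the log2 scale, with standard errors up to 0.23, and 0 to 3 genes were called with 1 library left out. Grin2d, which shares the GluN2 pool there with Grin2c, ran from 60.2 to 92.1 CPM in controls and from 64.0 to 85.8 CPM in HD, almost the same range. Purkinje markers summed to 8607 CPM in control and 7689 CPM in HD libraries, with 0 of 3 genes called by edgeR.

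In cerebellar vGluT2 IPs the subunit with the largest share, Grin2c, read 319, 239, 327, 343 and 272 CPM in controls and ran from 290 to 445 CPM in HD (median 316). The groups overlapped and the difference was 0.18 ± 0.13 (edgeR adjusted p = 0.537). Grin2b, near the bottom of its range here, ran from 1.14 to 10.4 CPM in HD (median 3.01) and differed by -0.59 ± 0.54, or by -1.07 ± 0.32 with the index as a covariate (edgeR adjusted p = 0.0713). By edgeR, the granule cell list, at 3194 CPM in control and 2124 CPM in HD libraries, had 1 of 3 genes called lower, and 1 of 5 striatal genes was called lower. Sst, at 0.214 to 63.5 CPM in controls (mean 15.5) against a mean of 3.73 CPM in HD, was not called by edgeR. The part of these cells in the subunit values was not tested. The number of genes called was 149 to 255 with 1 library left out, under 190 without control replicates 1 to 4 or HD replicates 1 or 5, and 0 subunits each time.

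The differences between HD effects were tested themselves. Between regions in Gad2 IPs 0 subunits were called by edgeR and 0 by DESeq2, against 0% of all genes (0 of 14472, with 777 at an unadjusted p under 0.05 and 21 by DESeq2), and 1 subunit was at an unadjusted p under 0.05: the Grin2a effect in cerebellum minus that in cerebrum was 0.71 ± 0.33 (edgeR adjusted p = 0.833). Between regions in vGluT2 IPs 0 subunits were called by either tool, against 0.323% of all genes, and 0 were at an unadjusted p under 0.05, beside 1062 of 14253 genes. Between cerebral Gad2 and vGluT2 IPs the counts were 0 by edgeR, 0 by DESeq2 and 0 at an unadjusted p under 0.05, against 0% of all genes (0 of 14477, 209 at an unadjusted p under 0.05, 0 by DESeq2). Between cerebellar vGluT2 and Gad2 IPs they were again 0, 0 and 0, against 0.107% of all genes called and 989 of 13971 at an unadjusted p under 0.05. The HD response of a subunit was thus not shown to differ between these cell types or regions.

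**Figure D3:**
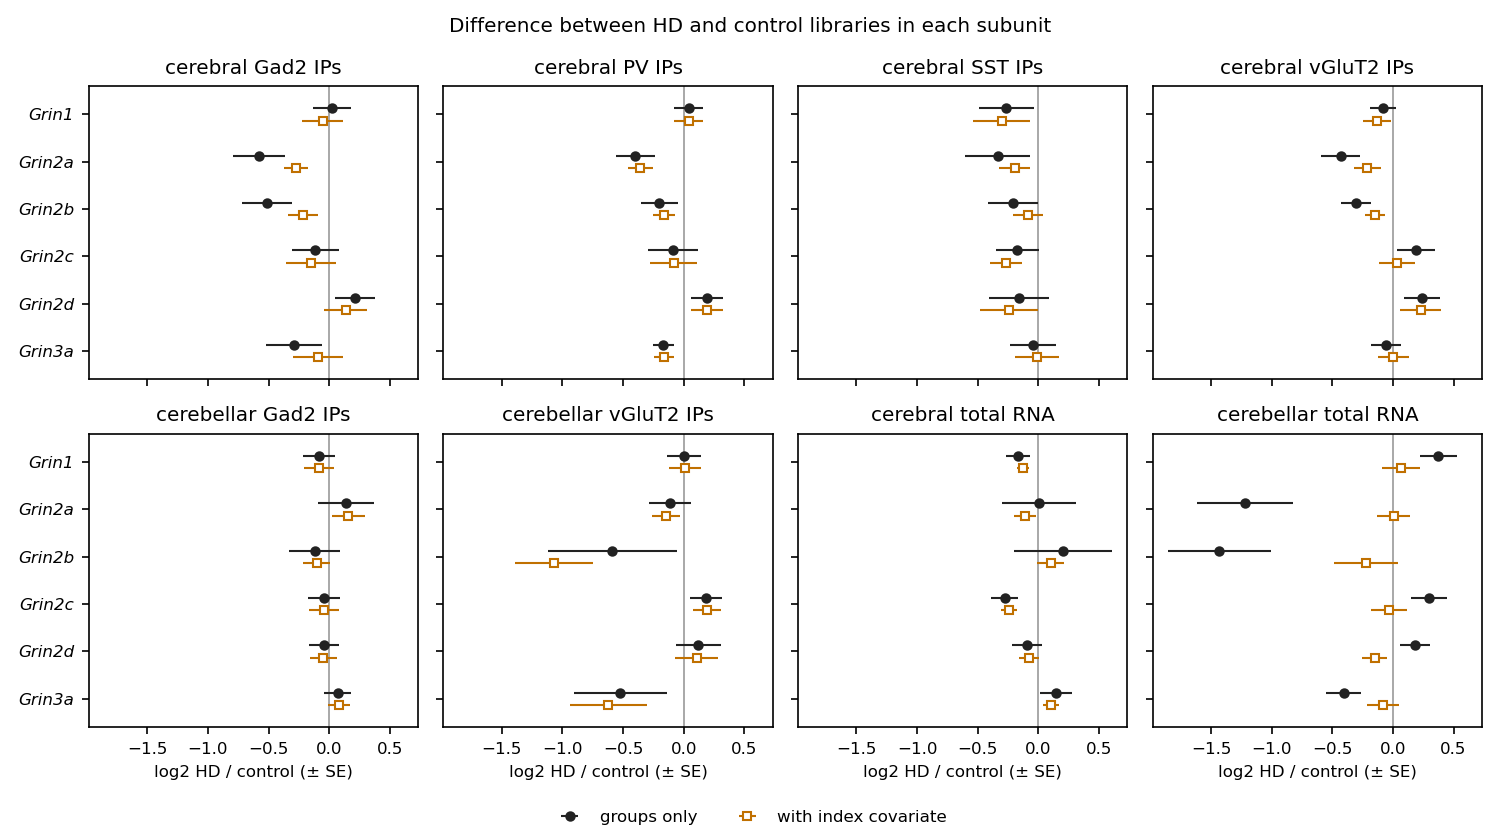
Log2 difference of HD against control with its standard error for the 6 subunits in the 8 sets, from fits with groups only (filled black) and with the long-transcript index as a covariate (open orange). Cerebellar total RNA shows the largest differences, -1.22 for Grin2a and -1.43 for Grin2b, which move to 0.00 and -0.22 with the covariate.

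In cerebral total RNA 0 subunits were called between HD and control by edgeR and 0 by DESeq2, against 0.645% of all genes (96 of 14880). At an unadjusted p under 0.05 there was 1, beside 1046 of 14880 genes. Grin2c ran from 28.6 to 66.6 CPM in 13 controls (median 53.7) and from 21.5 to 52.0 CPM in 12 HD libraries (median 44.3). HD values sat lower within an overlapping range. The difference was -0.28 ± 0.11 (edgeR adjusted p = 0.494), and with the index as a covariate -0.24 ± 0.07 (edgeR adjusted p = 0.0401), a call made only in that fit. Of the marker lists, 3 of 5 striatal genes were called lower by edgeR, with list sums of 1037 CPM in control and 637 CPM in HD, as were 0 of 6 astrocyte genes (1725 and 1617 CPM) and 0 of 4 oligodendrocyte genes (4665 and 3735 CPM). The part of these cells in the Grin2c value was not tested. Grin2a and Grin2b differed by 0.00 ± 0.30 and 0.21 ± 0.41, and by -0.11 ± 0.09 and 0.10 ± 0.11 with the index.

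Cerebellar total RNA was the 1 set with called subunits. Of 6, 2 were called, both lower in HD, against 24.5% of all genes (3544 of 14477), a share near the background. At an unadjusted p under 0.05 there were 4, beside 6423 of 14477 genes, and DESeq2 called 3, beside 4977 genes. Grin2a read 33.4, 78.3 and 25.2 CPM in controls of the Gad2 line and 76.0, 52.0, 47.0 and 63.1 CPM in controls of the vGluT2 line. In HD it read 29.8, 21.6 and 66.9 CPM in the Gad2 line and 21.6, 16.1, 11.5 and 16.6 CPM in the vGluT2 line. In the vGluT2 line all 4 HD libraries lay below all 4 controls, while in the Gad2 line the 3 and 3 libraries overlapped and HD replicate 3 was among the highest of all 14.

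Grin2b followed the same libraries. It read 9.46, 22.03 and 5.65 CPM in Gad2-line controls and 18.0, 12.5, 12.5 and 23.4 CPM in vGluT2-line controls. HD values were 5.05, 5.00 and 14.3 CPM in the Gad2 line and 7.72, 3.56, 2.91 and 3.10 CPM in the vGluT2 line. The vGluT2 line was again separated and the Gad2 line not. Over both lines Grin2b fell by 1.43 on the log2 scale (SE 0.42, edgeR adjusted p = 0.0345) and Grin2a by 1.22 (SE 0.40, edgeR adjusted p = 0.0413).

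The other subunits of cerebellar total RNA were not called by edgeR. Grin3a, at -0.41 ± 0.15, had an edgeR adjusted p of 0.0520 and was called by DESeq2 (adjusted p = 0.0299); it ran from 29.2 to 44.5 CPM in controls and from 24.7 to 39.5 CPM in HD. Grin1 was at 0.37 ± 0.15 (edgeR adjusted p = 0.0771), Grin2c at 0.30 ± 0.15 (0.131) and Grin2d at 0.18 ± 0.13 (0.267). The short genes thus stood on the other side of 0 from the long ones. The GluN2 share of Grin2c was 83.6% ± 4.80 in control and 89.2% ± 3.88 in HD libraries (SD, n = 7 each), and that of Grin2a 7.60% and 3.31%.

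The calls rested on the line, on single libraries and on the index. In the vGluT2 line alone all 6 subunits were called, with 7565 genes, and in the Gad2 line alone 0 subunits and 0 genes, with Grin2a at -0.20 ± 0.59 and Grin2b at -0.60 ± 0.64. With 1 library left out, 0 subunits were called in 11 of 14 fits, 3 without control Gad2 replicate 1, 4 without control Gad2 replicate 3 and 6 without HD Gad2 replicate 3; the 11 were those without control Gad2 replicate 2, HD Gad2 replicates 1 or 2 or any vGluT2-line library. Grin3a was called in those 3 fits (-0.50 to -0.43), Grin1 without control or HD Gad2 replicate 3 (0.44 and 0.46), and Grin2c and Grin2d without HD Gad2 replicate 3 (0.39 and 0.26). Grin2a ran from -1.56 to -1.05 over the 14 fits and Grin2b from -1.80 to -1.26, and the number of genes called from 96 (without HD vGluT2 replicate 4) to 7408 (without HD Gad2 replicate 3). With the index as a covariate 0 subunits and 55 genes were called, with Grin2a at 0.00 ± 0.14 (edgeR adjusted p = 0.992) and Grin2b at -0.22 ± 0.27 (edgeR adjusted p = 0.809).

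The index itself separated the vGluT2-line libraries by genotype. It ran from 0.438 to 0.794 in the 4 controls and from -1.02 to -0.46 in the 4 HD libraries of that line, and from -0.19 to 0.961 and from -0.75 to 0.816 in the 3 and 3 of the Gad2 line. Among long genes at large, 322 of 853 were called lower in HD and 11 higher, with a median log2 difference of -0.67, while 3472 short genes had a median of 0.23. Marker genes moved as well: 2 of 3 GABAergic, 1 of 3 Purkinje, 3 of 6 astrocyte and 2 of 4 oligodendrocyte genes were called lower, and 1 of 2 glutamatergic, 1 of 5 striatal, 1 of 2 oligodendrocyte precursor and 2 of 4 microglial genes higher. List sums were 791 and 689 CPM (GABAergic), 2277 and 1783 CPM (Purkinje), 2753 and 2105 CPM (astrocyte and Bergmann glia), 3932 and 2848 CPM (oligodendrocyte), 722 and 1111 CPM (glutamatergic), 348 and 396 CPM (striatal), 29.2 and 27.8 CPM (oligodendrocyte precursor) and 69.6 and 94.1 CPM (microglia) in control and HD libraries. The granule cell list summed to 1262 and 881 CPM, with 0 of 3 genes called by edgeR. Their part in the subunit values was not tested. In the vGluT2 line, genotype and index cannot be told apart.

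**Figure D4:**
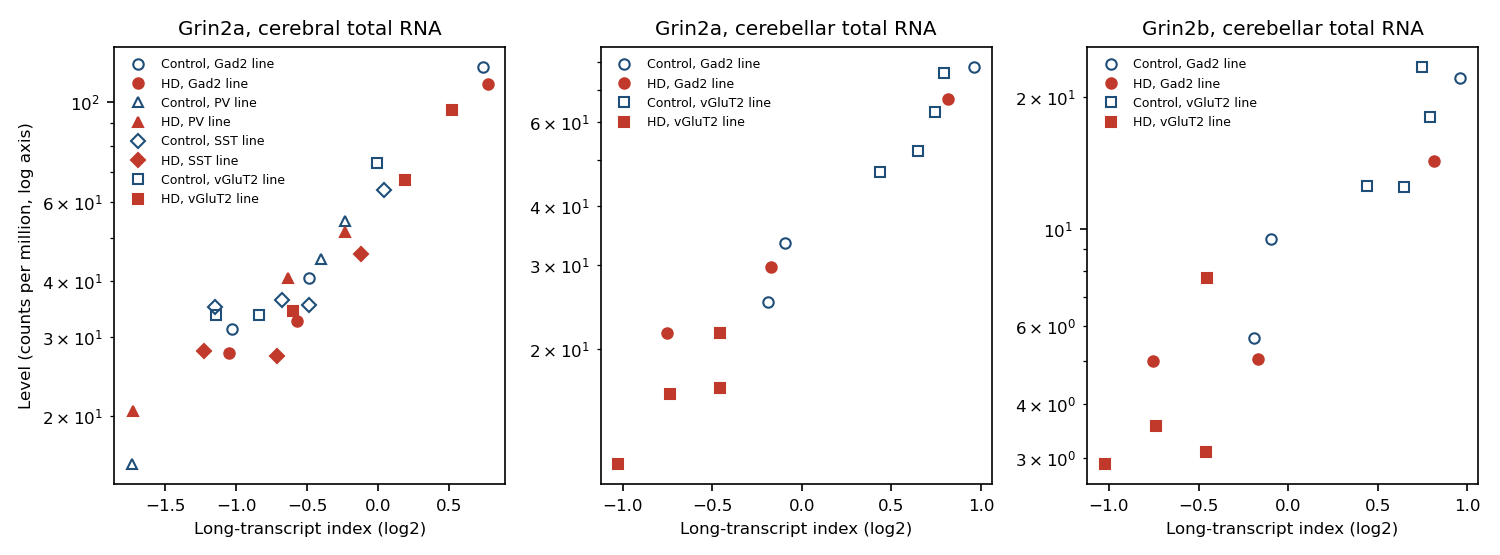
Level in CPM (log axis) against the long-transcript index for Grin2a in cerebral total RNA and for Grin2a and Grin2b in cerebellar total RNA, 1 marker per library, with shapes for the Cre line, open blue for control and filled red for HD. Levels are higher where the index is higher, and the 4 HD libraries of the vGluT2 line sit at the low end in the cerebellum.

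The rest of the receptor's machinery was read from 43 genes listed by role: Grin3b, 12 scaffolds, 16 kinases, phosphatases and Ras regulators, 7 genes of trafficking and anchoring, and 7 of co-agonist supply and removal. Between HD and control 0 of them were called by edgeR in 5 of the 6 IP sets. In cerebellar vGluT2 IPs 1 of 43 was called, beside 2.11% of all genes: the death-associated kinase Dapk1, which rose by 1.14 ± 0.27 (edgeR adjusted p = 0.0441). In cerebral total RNA 1 of 43 was called, beside 0.645% of all genes: the glycine transporter Slc6a9, at -0.35 ± 0.08 (edgeR adjusted p = 0.0471). In cerebellar total RNA 4 were called higher and 5 lower of 43, beside 24.5% of all genes, in the comparison where 55 genes were called with the index and 0 in the Gad2 line alone. Among them were the anchoring protein Akap9 (-1.47 ± 0.43), the scaffolds Dlg2 (-0.55 ± 0.19) and Dlgap1 (-0.49 ± 0.15), the calcineurin subunit Ppp3ca (-0.54 ± 0.18) and the serine transporter Slc1a4 (0.59 ± 0.12).

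Between regions of controls, 13 of 43 were called higher and 21 lower in cerebellar against cerebral Gad2 IPs, beside 55.0% of all genes, and 13 and 24 in vGluT2 IPs, beside 63.7%. The tyrosine kinase Ptk2b was lower by -6.90 ± 0.46 and -7.14 ± 0.51 in these, the auxiliary protein Neto1 by -5.10 ± 0.34 and -5.49 ± 0.38, and the scaffold Dlgap2 by -5.26 ± 0.45 and -5.05 ± 0.48. The D-amino acid oxidase Dao, which degrades the co-agonist D-serine, was higher by 6.19 ± 0.36 and 6.91 ± 0.41. Of 6 astrocyte and Bergmann glia genes, 4 were called higher and 1 lower in the Gad2 pair and 3 and 1 in the vGluT2 pair. Against cerebellar total RNA (mean 76.4 CPM) Dao was lower in both cerebellar IPs, by -1.54 ± 0.20 in Gad2 (28.1 CPM) and -2.64 ± 0.23 in vGluT2 (13.3 CPM), and the part of glia in its level was not tested. Actn2 was lower by -4.98 ± 0.27 in the Gad2 pair and Camk2a, the kinase that binds GluN2B, by -5.93 ± 0.36 in the vGluT2 pair. Total RNA of the regions gave 9 higher and 24 lower, beside 70.6% of all genes, with Ptk2b at -6.60 ± 0.29 and Camk2a at -4.48 ± 0.13.

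Between cell types the counts were 14 higher and 10 lower in cerebral vGluT2 against Gad2 IPs, with 6 of 7 co-agonist genes lower and 6 of 12 scaffolds higher, 12 and 19 in the cerebellar pair, 1 and 3 in PV against SST IPs, and 13 and 11 in PV against Gad2 IPs, beside 30.1%, 58.7%, 14.7% and 53.4% of all genes. Of 14571 genes, 2434 were called lower and 1957 higher in the cerebral pair. In the cerebellar pair 6 of 7 co-agonist genes were lower too, beside 3761 of all genes. Astrocyte genes were called lower in 3 of 6 cases in the cerebral pair (1 higher) and 3 of 6 in the cerebellar pair. Oligodendrocyte genes were lower in 2 of 4 and 1 of 4 cases, and microglial genes in 4 of 4 in both. The part of glia in these counts was not tested. The glycine transporter Slc6a5 was lower in vGluT2 than Gad2 IPs, by -5.99 ± 0.46 in the cerebrum and -4.31 ± 0.45 in the cerebellum, and higher in PV than SST IPs, by 1.38 ± 0.38. Camk2a was higher in cerebral vGluT2 than Gad2 IPs, by 1.28 ± 0.27, and lower in the cerebellar pair, by -2.40 ± 0.30. Shank2 was lower by -2.76 ± 0.20 and Dlg1 higher by 1.81 ± 0.18 in cerebellar vGluT2 against Gad2 IPs. Rph3a, which binds GluN2A, was lower by -0.48 ± 0.12 and Fyn, which phosphorylates GluN2B, by -0.31 ± 0.09 in PV against SST IPs.

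Against total RNA, co-agonist genes called lower were 5 of 7 in cerebral Gad2, PV and SST IPs, 6 of 7 in cerebral vGluT2 and cerebellar Gad2 IPs, and 7 of 7 in cerebellar vGluT2 IPs. Of all genes, 4245 of 14773, 4510 of 14773, 4232 of 14773, 4409 of 14773, 4664 of 14267 and 4385 of 14267 were called lower in cerebral Gad2, PV, SST, cerebral vGluT2, cerebellar Gad2 and cerebellar vGluT2 IPs, and the roles were not compared by a test. Astrocyte genes were called lower as well, 6 of 6 in the Gad2 and vGluT2 IPs of both regions, 4 of 6 in PV and 3 of 6 in SST IPs (1 higher), and the part of glia in the co-agonist counts was not tested. Phgdh, which starts serine synthesis, was lower by -3.47 ± 0.20 in cerebral Gad2, -2.75 ± 0.19 in PV, -2.57 ± 0.21 in SST and -4.14 ± 0.21 in cerebral vGluT2 IPs. Over the whole list the counts higher and lower were 12 and 15 in cerebral Gad2 IPs, 10 and 14 in PV, 15 and 11 in SST, 17 and 13 in cerebral vGluT2, 10 and 14 in cerebellar Gad2 and 8 and 17 in cerebellar vGluT2 IPs.

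Genes whose levels were most like each subunit's were ranked by Pearson r of log2 CPM over the 54 control libraries, among 13369 genes, as a description with no test; these libraries share regions, lines and the index. For Grin1 the first 3 were P4htm (0.938), Gpi1 (0.935) and Aldoa (0.931). For Grin2a the first was Cacna1e (0.976), and for Grin2b the first 3 were Kcnq3 (0.972), Tanc2 (0.970) and Rapgef5 (0.965). Clic1 (0.962) and Tmem51 (0.960) were among the first 3 for Grin2c. For Grin2d they were Slc32a1 (0.929), the vesicular GABA transporter on the GABAergic marker list, Spsb4 (0.918) and Kcnip1 (0.916), and for Grin3a Nav1 (0.878), Masp1 (0.877) and Lmo7 (0.872). The genes named for Grin2a and Grin2b have longest transcripts of 6746 to 14921 bases, and those named for Grin1 of 1549 to 2884 bases. Among the subunits themselves, Grin2b and Grin2c ran most against each other (r = -0.88), and Grin2d and Grin3a (0.705) and Grin2a and Grin2b (0.643) ran most together.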

How the data were processed

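The gene counts deposited by the authors are estimated counts, made with STAR and Salmon on GRCm38.p6 according to the submitters' processing notes; the sources read do not name their annotation release. Of the values, 8.57% were not whole, and all were rounded. Total counts per library ran from 21905221 to 107753586 (median 35866725). The 92 spike-in rows (0.09% to 4.454% of counts) were left out, and 55141 of 55401 genes matched GENCODE M21, which gave positions, lengths and sequences.

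Levels are CPM with TMM factors over all libraries. Tests used edgeR's quasi-likelihood fit with TMM on protein-coding genes whose mean count passed 10, two-sided, with Benjamini-Hochberg adjustment over all genes tested and calls at 0.05; DESeq2 was run beside it. Versions were R 4.3.3, edgeR 4.0.16, limma 3.58.1, DESeq2 1.42.0, Python 3.11.15, numpy 2.4.6, scipy 1.17.1, pandas 2.3.3 and matplotlib 3.10.9. The code was tested on simulated counts, drawn with no effect of transcript length across a library. The check on how many changed genes were recovered did not cover the HD effect in cerebellar total RNA.

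Named genes were the 6 subunits, the 3 genes most like each over control libraries (mean of at least 1 CPM; 3 of these 18 are not reported here), and, from 43 genes of the receptor's machinery, at most 5 called genes per comparison with the largest differences. The subunits and gene lists were chosen with earlier results of these data known, and the long-transcript index after seeing the data. Cerebral and cerebellar IPs of the same mouse correlated with r from -0.39 to 0.688 in 12 Gad2 mice and from -0.28 to 0.615 in 11 vGluT2 mice, after removal of group means; 37 samples of a mouse and region had both IP and total RNA.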

Additional observations from a re-analysis of the deposited data

Results flagged for a closer look

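In groups of 4 to 10 libraries, the distance from the highest or lowest library to the next was divided by the group's range and compared with Dixon's 95% critical value. Of 90 checks of subunit levels 5 exceeded it, and chance does so in about 1 in 20 groups. Their causes were not tested.

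Grin2a in control cerebral total RNA of the SST line read 63.8 CPM in replicate 4 against 34.9 to 36.3 CPM in the other 3 libraries (ratio 0.953, critical value 0.829). Grin2c in the same group was lowest in that replicate, at 36.0 CPM against 55.9 to 57.2 CPM (ratio 0.936). The long-transcript index of that library was 0.042, and -1.15 to -0.49 in the others.

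Grin2b in HD cerebellar total RNA of the vGluT2 line read 7.72 CPM in replicate 1 against 2.91 to 3.56 CPM (ratio 0.866), with an index of -0.46 against -1.02 to -0.46.

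Grin2c in HD SST IPs read 38.8 CPM in replicate 4 against 25.6 to 27.4 CPM (ratio 0.863), with an index of -0.08 against 0.909 to 0.979. In HD cerebellar vGluT2 IPs Grin2c read 445 CPM in replicate 4 against 290 to 342 CPM (ratio 0.661, critical value 0.625), with an index of -0.12 against 0.061 to 0.866.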

How the results depend on the processing

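Comparisons were refitted under 12 alternatives, of which 4 covered all 150 subunit differences and the others 6 to 60 of them. The 278 fits that left out 1 library did not cover the HD effect in cerebral total RNA or total RNA between the regions. In comparisons of IPs with total RNA, only IP libraries were left out. Of 150 subunit differences, 140 kept their direction and side of the threshold with DESeq2, 140 with DESeq2 size factors in edgeR, 142 with no filter on low counts and 125 with the long-transcript index as a covariate, which was chosen after seeing the data; so did 36 of 36 with all gene types, 35 of 36 with the replicate number as a block, 49 of 60 with the mouse as a block and 26 of 36 with total RNA of the same line. In total RNA, 6 of 6 did without the SST line, 5 of 6 without the 4 libraries at the ends of the index, 2 of 6 in the Gad2 line alone and 2 of 6 in the vGluT2 line alone. The cause was not tested for any of the changes given here. The shallowest library held 21905221 counts and the lowest subunit count in any library was 43, for Grin2b, so counting error limits that gene most. Of 96 mean levels 3 moved by over 1 SD without TMM factors, and 5 of 64 GluN2 shares with the longest transcript.

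DESeq2 in place of edgeR called more genes between HD and control: 75 for 4 in cerebral Gad2 IPs, 42 for 5 in PV, 2 for 0 in SST, 25 for 1 in cerebral vGluT2, 22 for 2 in cerebellar Gad2 and 665 for 285 in cerebellar vGluT2 IPs, and 213 for 96 in cerebral total RNA. For the HD effect by region it called 21 for 0 in Gad2 IPs and 126 for 46 in vGluT2 IPs, and 73 for 15 between cerebellar vGluT2 and Gad2 IPs. DESeq2 and DESeq2 size factors both turned Grin1 in the HD effect of cerebellar vGluT2 IPs (0.003 to -0.0079), in control cerebral vGluT2 against Gad2 IPs (-0.04 to 0.0078) and in PV IPs against total RNA (0.05 to -0.0781), and Grin2c in the HD effect by region in vGluT2 IPs (0.0099 to -0.0073 and -0.0063). DESeq2 size factors gave 0 genes for 1 in cerebral vGluT2 and 1 for 2 in cerebellar Gad2 IPs.

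With no filter on low counts the genes called between HD and control were 0 for 1 in cerebral vGluT2 and 1 for 2 in cerebellar Gad2 IPs. Grin1 then turned in control cerebral vGluT2 against Gad2 IPs (-0.04 to 0.0062) and in PV IPs against total RNA (0.05 to -0.10), and Grin2d in the HD effect of cerebral Gad2 against vGluT2 IPs (-0.01 to 0.0151). With all gene types 0 genes were called for 1 in cerebral vGluT2 and 0 for 2 in cerebellar Gad2 IPs. In cerebral total RNA, 21 genes for 96 were called without the SST line.

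With the replicate number as a block, the HD effect gave 9 genes for 4 in cerebral Gad2 IPs, 0 for 5 in PV, 1 for 0 in SST, 0 for 1 in cerebral vGluT2, 0 for 2 in cerebellar Gad2 and 108 for 285 in cerebellar vGluT2 IPs, where Grin1 turned from 0.003 to -0.0425. Whether these numbers pair HD with control mice is not known. After removal of group means, the correlation between libraries of the same number ran from -0.44 to 0.644 in cerebral Gad2, -0.46 to 0.482 in PV, -0.23 to 0.163 in SST, -0.03 to 0.434 in cerebral vGluT2, -0.24 to 0.599 in cerebellar Gad2 and -0.16 to 0.455 in cerebellar vGluT2 IPs. The best match was the library of the same number in 4 of 6, 1 of 4, 0 of 4, 2 of 5, 2 of 5 and 1 of 5 cases. With the mouse as a replicate block, cerebral Gad2 IPs against total RNA gave 2494 genes for 9679 and 2 subunits for 6, and cerebellar Gad2 IPs 4558 genes for 8254. Grin1 in PV IPs against total RNA turned from 0.05 to -0.0671, and Grin3a in cerebral vGluT2 IPs from -0.03 to 0.15. With total RNA of the same line only, cerebral Gad2 IPs gave 4790 genes for 9679 and 2 subunits for 6, Grin1 in PV IPs was -0.15 and Grin3a in cerebral vGluT2 IPs 0.0453.

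With the long-transcript index as a covariate, the genes called between HD and control were 10 for 4 in cerebral Gad2, 5 for 1 in cerebral vGluT2 and 739 for 285 in cerebellar vGluT2 IPs, 552 for 96 in cerebral total RNA (1 subunit for 0) and 55 for 3544 in cerebellar total RNA (0 subunits for 2). By region it gave 5 for 0 in Gad2 and 75 for 46 in vGluT2 IPs, and 74 for 15 between cerebellar vGluT2 and Gad2 IPs. The HD effect turned for Grin1 in cerebral Gad2 IPs (0.02 to -0.0545), Grin3a in cerebral vGluT2 IPs (-0.06 to 0.0024), Grin2a in cerebral total RNA (0.0045 to -0.11, and -0.0116 without the 4 libraries at the ends of the index) and Grin2a (-1.22 to 0.005), Grin2c (0.30 to -0.0331) and Grin2d (0.18 to -0.15) in cerebellar total RNA. In controls, PV against SST IPs turned for Grin2a (-0.11 to 0.0592) and Grin2b (-0.12 to 0.0458), and PV against Gad2 IPs for Grin2a (0.66 to -0.11) and Grin2b (0.40 to -0.36), with 1 subunit called for 2. Against total RNA, PV IPs turned for Grin2c (-0.37 to 0.11) and Grin3a (0.30 to -0.11), and SST IPs for Grin1 (-0.25 to 0.18) and Grin2c (-0.42 to 0.11), with 4849 genes for 9388 and 3 subunits for 5. Between total RNA of the regions Grin2a turned from 0.21 to -0.998.

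In cerebellar total RNA the Gad2 line alone gave 0 genes for 3544 and 0 subunits for 2, with Grin1 at -0.0029 and Grin2d at -0.0595, and the vGluT2 line alone 7565 genes and 6 subunits.

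Leaving out 1 library, the HD effect gave 3 to 12 genes in cerebral Gad2 IPs, 0 to 4 in PV, 0 to 1 in SST, 0 to 1 in cerebral vGluT2, 0 to 3 in cerebellar Gad2 and 149 to 255 in cerebellar vGluT2 IPs, and 96 to 7408 genes and 0 to 6 subunits in cerebellar total RNA. By region it gave 0 to 5 genes in Gad2 IPs, and 13 to 25 between cerebellar vGluT2 and Gad2 IPs. Subunits called were 2 to 4 in control cerebral vGluT2 against Gad2 IPs and 3 to 4 in PV IPs against total RNA. HD effects that changed sign were Grin1 (-0.0434 to 0.15) and Grin2c (-0.20 to 0.0032) in cerebral Gad2, Grin1 (-0.0595 to 0.11) in PV, Grin3a (-0.16 to 0.083) in SST, Grin3a (-0.12 to 0.0279) in cerebral vGluT2, Grin1 (-0.12 to 0.0197), Grin2a (-0.006 to 0.26), Grin2b (-0.25 to 0.049), Grin2c (-0.10 to 0.0301) and Grin2d (-0.10 to 0.0452) in cerebellar Gad2, and Grin1 (-0.0858 to 0.0846) and Grin2a (-0.22 to 0.0085) in cerebellar vGluT2 IPs. So did, by region, Grin2c in Gad2 (-0.0563 to 0.16) and Grin2b (-0.73 to 0.0504) and Grin2c (-0.0907 to 0.0928) in vGluT2 IPs, Grin2d between cerebral Gad2 and vGluT2 (-0.0917 to 0.0799) and Grin1 between cerebellar vGluT2 and Gad2 IPs (-0.0454 to 0.16). In controls these were Grin1 in cerebral vGluT2 against Gad2 IPs (-0.13 to 0.042), Grin2a (-0.21 to 0.0008) and Grin2c (-0.0756 to 0.13) in PV against SST, Grin2d in PV against Gad2 (-0.0512 to 0.12) and Grin1 in PV IPs against total RNA (-0.0083 to 0.0765).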
